A study of Homo sapiens with 414 samples.

Results

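The 35 genes described here are DNA replication and S phase genes, out of 19084 in the expression table. They were taken as a fixed list by name: the 6 subunits of the MCM helicase (MCM2 to MCM7), 8 licensing and firing factors (MCM10, CDC6, CDT1, CDC45 and GINS1 to GINS4), 4 enzymes of nucleotide supply (RRM1, RRM2, TYMS, TK1), the sliding clamp PCNA with 4 subunits of its loader (RFC2 to RFC5), 6 polymerase and primase subunits (POLA1, POLA2, POLE, POLE2, POLD1, PRIM1), 5 genes of strand maturation and chromatin copying (FEN1, LIG1, CHAF1A, CHAF1B, UHRF1) and the S phase cyclin gene CCNE2. All 35 were measured, and all 35 passed the filter on low values. For 7 of them (MCM7, GINS2, TYMS, RFC5, CHAF1A, UHRF1 and CCNE2) the RefSeq annotation places another protein-coding gene over part of the gene body, introns included. The library kit does not mark strand, so their TPM may include reads of the overlapping gene.

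The cells were H1-NPC, neural progenitors made from H1, a line of human embryonic stem cells, plated after FGF2 expansion and given a compound from the day of plating. Each library is 1 well lysed on day 1, 2, 3, 4, 6, 8, 10, 15, 21, 27 or 39, with 1 dose per compound and at most 1 library per compound and day. Of the 414 libraries, 266 are of 29 compounds labelled toxic and the others of 16 compounds labelled non-toxic. The toxic compounds were Hydroxyurea at 250 uM, 5-Fluorouracil at 10 uM, Cytosine Beta-D-arabinofuranoside (AraC) at 5 uM, Busulfan at 50 ug/ml, Okadaic acid at 3 nM, Arsenic at 5 uM, Cadmium at 50 uM, Vincristine at 1 nM, K252a at 30 nM, U0126 at 10 uM, PD166866 at 2.5 uM, (trans) Retinoic acid at 1.7 uM, Accutane or Isotretinoin at 0.5 ug/ml, and, with fewer or smaller effects, Monosodium glutamate at 150 uM, Maneb at 60 uM (1 library, on day 1), Amiodarone at 1 ug/ml, Dexamethasone at 100 uM, Lead acetate at 30 uM, Bis-I at 4 uM, Carbamazepine at 10 ug/ml, Propylthiouracil at 25 ug/ml, Diazinon at 10 uM, Benzene at 50 ug/ml, Bioallethrin at 10 nM, 2-Imidazolidinethione at 0.4 mM, Dioxin at 3 nM, L-phenylalanine at 1 mM, Permethrin at 2.5 uM and Thalidomide at 100 ng/ml. The non-toxic compounds that served as controls were DMSO at 0.1%, Acetaminophen at 10 ug/ml, Amoxicillin at 5 ug/ml, Aspirin and Ibuprofen each at 20 ug/ml, Naproxen sodium at 30 ug/ml, Glucosamine at 0.4 ug/ml, PVP at 100 ug/ml, and Ficoll 400, Fructose, Glycerol, Glyphosate, PEG 3350, Saccharin, Sorbitol and Sucrose, each at 10 uM. There were 7 to 16 non-toxic libraries on each day. Only days 1 to 6 (5 libraries) were sampled for Vincristine, Cadmium, Busulfan, Arsenic, AraC and Okadaic acid, and for 5-Fluorouracil days 27 and 39 as well. Nothing states how independent the wells of a compound were. Against the non-toxic libraries, p-values pool the spread of a compound's wells over its days with that between non-toxic wells of the same day. The non-toxic wells were the larger number. Between days of the non-toxic libraries, p-values measure the spread between wells of the same day. Between toxic compounds, they measure the spread between single wells of different days. None measures how a compound's effect would repeat on the same day. The values are TPM, which carry no sequencing depth, so depth is unknown.

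Replication starts when origins are licensed in G1: CDC6 and CDT1 load the MCM helicase onto DNA, and MCM10, CDC45 and the GINS complex turn it into a moving helicase at the start of S phase. Ribonucleotide reductase (RRM1 with RRM2) makes deoxynucleotides, TYMS makes the thymidine nucleotide de novo and TK1 salvages it, while primase, the polymerases and PCNA copy the strands, and FEN1 and LIG1 join the pieces. Many of these genes are transcribed by E2F factors when cells pass from G1 into S phase, so their messenger RNAs are abundant in dividing progenitors and low in neurons, which no longer divide.

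Promoters were read for 31 of the 35 genes, as RefSeq gives them on GRCh38.p14, from 250 bases before the start to 50 after it. Any of the E2F words TTTCCCGC, TTTGGCGC, TTTCGCGC or TTTGCCGC, on either strand, was in 18 of these 31 windows (58.1%), against 1164 of all 35116 windows (3.31%). The 35116 are all windows of the promoter set, more than the 19084 genes of the expression table, while each of the 31 genes has 1 window. The 2 shares are thus not of like sets. The CCAAT word was in 17 of the 31 (54.8%), against 12155 of all windows (34.6%), and the CHR word TTTGAA, known from promoters of mitotic genes, was in 1 of the 31 (3.23%), against 5324 of all (15.2%). The 5 windows below are shown because these genes parted from each other under AraC and Busulfan. Each holds 170 bases around the start, read 5′ to 3′ on the gene's strand, and capitals mark the E2F and CCAAT words on either strand, with overlapping matches run together. The MCM2 window is chr3:127598261-127598430 on the plus strand, that of MCM6 is chr2:135876424-135876593 on the minus strand, that of CDC6 is chr17:40287729-40287898 on the plus strand, that of RRM2 is chr2:10122589-10122758 on the plus strand and that of TYMS is chr18:657503-657672 on the plus strand.
MCM2: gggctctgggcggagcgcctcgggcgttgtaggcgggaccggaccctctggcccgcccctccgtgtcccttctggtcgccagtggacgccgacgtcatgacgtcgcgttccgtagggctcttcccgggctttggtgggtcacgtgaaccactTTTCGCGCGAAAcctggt
MCM6: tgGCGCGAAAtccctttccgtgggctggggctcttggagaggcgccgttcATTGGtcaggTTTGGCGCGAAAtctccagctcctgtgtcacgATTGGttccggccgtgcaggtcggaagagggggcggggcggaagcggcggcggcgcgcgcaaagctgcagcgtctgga
CDC6: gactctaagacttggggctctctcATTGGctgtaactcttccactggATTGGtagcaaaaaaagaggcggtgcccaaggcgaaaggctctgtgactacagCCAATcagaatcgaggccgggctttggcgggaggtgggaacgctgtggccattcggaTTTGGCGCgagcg
RRM2: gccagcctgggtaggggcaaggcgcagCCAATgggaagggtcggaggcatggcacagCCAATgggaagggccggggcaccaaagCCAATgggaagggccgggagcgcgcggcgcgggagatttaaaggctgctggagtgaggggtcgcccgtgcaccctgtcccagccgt
TYMS: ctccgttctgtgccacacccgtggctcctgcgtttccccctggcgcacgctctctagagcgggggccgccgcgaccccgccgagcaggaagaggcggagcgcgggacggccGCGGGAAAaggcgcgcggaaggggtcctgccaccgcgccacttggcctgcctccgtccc
MCM2 holds a palindromic E2F word at its start, MCM6 holds E2F words at 2 places with 2 CCAAT words, CDC6 holds 1 E2F word and 3 CCAAT words, RRM2 holds 3 CCAAT words and none of the 4 E2F words, and TYMS holds 1 E2F word. A word is a description of the letters and not evidence of binding.

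Some libraries stand apart and are named before the results. Over the 35 genes, the median deviation from that day's mean non-toxic level was -1.32 (log2) for Monosodium glutamate on day 1, -0.85 for the single Maneb library, -1.40 for Vincristine on day 4, and, among the controls, -0.68 for Ibuprofen on day 8. Loss of long transcripts, measured as the slope of a library's deviation on log2 transcript length, was below -0.15 in 23 libraries, 22 of them toxic and 11 of those on day 21. The toxic class as a whole was shifted on some days, early and late. The median toxic library lay at 0.08 on day 3, -0.11 on day 6, -0.14 on day 21 and 0.17 on day 39. The median non-toxic library lay at 0, -0.01, 0.02 and -0.02 on these days. On day 3, 18 of 28 toxic libraries lay above 0 and 10 below, and on day 6, 5 lay above and 23 below. Days 3 and 6 fall in the comparisons of days 1 to 6. Over all genes, the median of the toxic class was -0.01 on day 3, 0 on day 6, -0.2 on day 21 and 0 on day 39. POLE, the catalytic subunit of the leading strand polymerase and a long transcript, had 18.1 to 49.7 TPM in the 19 toxic libraries of day 21 and 50.4 to 62.3 TPM in the 11 non-toxic ones, so the classes did not overlap on that day. The median length slope that day was -0.19 in the toxic libraries and 0 in the non-toxic ones, and its part in the difference in POLE was not tested. No libraries were identical, the closest pair correlating at 0.9965. As to the labelled cell type, non-toxic day 1 libraries averaged 291 TPM of SOX2, 1640 TPM of NES and 1.65 TPM of POU5F1, and GFAP, an astrocyte gene, averaged 0.721 TPM on day 1 and 3530 TPM on day 39. COL1A1, a collagen of mesenchymal cells, averaged 674 TPM on day 1, 113 TPM on day 6 and 2420 TPM on day 39.

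In the non-toxic libraries the replication genes fell mostly before day 10, and again between day 21 and day 39. MCM2, a core helicase subunit, had mean levels of 238, 201, 173, 139, 82.3, 51.8, 42.1, 47, 45.4, 47 and 39.3 TPM over the 11 days. MCM10 fell furthest over the whole course, at 42.4 ± 1.7 TPM on day 1 (SD, n = 16), 7.18 ± 1.18 TPM on day 10 (n = 15) and 3.34 ± 0.471 TPM on day 39 (n = 14), 12.7 times lower at the end than at the start. RFC2, a subunit of the clamp loader, changed least, being 2.64 times lower on day 39 than on day 1. The order of levels also moved: PCNA was the most abundant of the 35 per length on both day 1 (494 to 562 TPM) and day 39 (93.8 ± 10.7 TPM), while UHRF1, which recruits the maintenance DNA methyltransferase to copied DNA, was the 6th on day 1 (207 ± 7.98 TPM) and the 17th on day 39 (17.5 ± 2.54 TPM). MCM7 and TYMS came next on day 1, at 475 ± 8.07 and 425 ± 12.7 TPM, ranges that do not overlap.

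**Figure D1:**
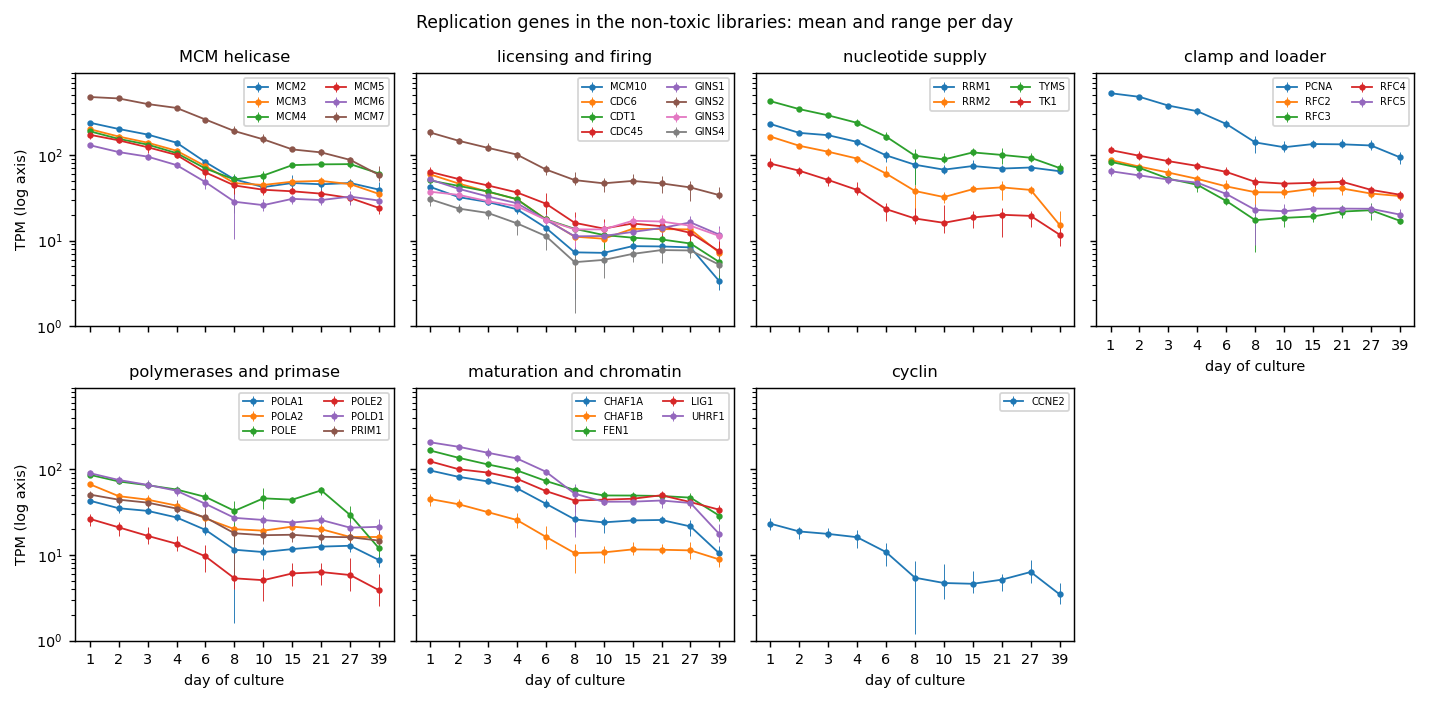
Level of each of the 35 genes in the non-toxic libraries, by role. The x axis gives the day of culture and the y axis TPM on a log axis; points are means over 7 to 16 libraries and bars run from the lowest to the highest library. The mean of every gene is lower on day 10 than on day 1, with MCM10 the gene of the largest overall change (42.4 TPM on day 1, 3.34 TPM on day 39).

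A gene is said to have risen or fallen where the Benjamini-Hochberg adjusted p of the limma fit over all 16318 genes tested was under 0.05, and differences are of log2(TPM + 1), ± SE. Between day 1 and day 4, all 35 genes fell, with a median difference of -0.77, while 29.7% of all genes tested fell and their median difference was -0.01. The largest falls were in TK1 (-1.01 ± 0.07, adjusted p = 1.69e-30), CDC6 (-0.94 ± 0.07) and POLE2 (-0.92 ± 0.08). Between day 4 and day 10 all 35 fell again, with a median of -1.24, where 35.8% of all genes fell. MCM2 led (-1.71 ± 0.04, adjusted p = 6.1e-84), followed by UHRF1 (-1.66 ± 0.06) and CCNE2 (-1.60 ± 0.08), and POLE fell least. The mitotic genes went the same way, 14 of 14 falling in each of these steps, and so did 48 and then 47 of 54 other replication genes. Markers of other cell types moved over the same days. The median summed level of 7 neuron markers was 2560, 4950 and 7140 TPM on days 1, 4 and 10, that of 7 neural progenitor markers was 5700, 4690 and 3590 TPM, and that of 6 mesenchymal markers was 2380, 681 and 606 TPM. Their part in the fall was not tested. In bulk RNA, fewer dividing cells and less RNA per cell cannot be told apart.

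From day 10 to day 21 the decline stopped. Here 19 of the 35 rose, with a median of 0.13, but 49.6% of all genes rose and the median over all genes was 0.16. With each library centred on its median gene, 7 of the 35 rose. MCM4 (0.43 ± 0.05), RRM2 (0.36 ± 0.06) and CDC6 (0.35 ± 0.08) had the largest rises, and MCM7 (-0.51 ± 0.03) and MCM5 (-0.14 ± 0.05) were the 2 that fell, where 12.5% of all genes fell. From day 21 to day 39, 33 fell, with a median of -0.50, where 42% of all genes fell. POLE fell most, to 11.9 ± 1.47 TPM on day 39 against 56.8 ± 3.74 TPM on day 21 (-2.17 ± 0.07, adjusted p = 3.3e-62). It was followed by RRM2 (-1.40 ± 0.06), UHRF1 (-1.26 ± 0.07), CHAF1A, which deposits histones on new DNA (-1.24 ± 0.05), and MCM10 (-1.13 ± 0.07). MCM2 moved little in this step (-0.21 ± 0.04). Over the same interval CDKN1A, the gene of the cell cycle inhibitor p21, rose by 2.50 ± 0.08, to 369 ± 46.1 TPM, against 64.3 ± 7.8 TPM on day 21, and all 14 mitotic genes fell. Markers of mesenchymal cells rose in 6 of 6 cases in both of the last steps, the median of their summed level being 606 TPM on day 10, 2700 TPM on day 21 and 7130 TPM on day 39. The median summed level of 5 astrocyte markers was 308, 2030 and 4640 TPM on these days, that of neuron markers was 7140, 5860 and 4320 TPM, and that of neural progenitor markers was 3590, 4100 and 5970 TPM. Their part in these results was not tested.

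Hydroxyurea, which inhibits ribonucleotide reductase, kept many replication genes near their starting level to day 10, while the controls fell. MCM2 had 265, 281, 256, 235, 213, 214, 185, 103, 52.1, 54 and 44.4 TPM on the 11 days under Hydroxyurea, beside the non-toxic means given above. RRM2, the regulated subunit of the drug's target, had 285, 301, 266, 235, 226, 198, 214, 121, 64.6, 63.4 and 41.2 TPM under Hydroxyurea, against non-toxic means of 164, 128, 109, 90.7, 60.6, 37.9, 32.2, 39.8, 41.8, 39 and 15.2 TPM. Every Hydroxyurea library was above the highest non-toxic library of its day for RRM2. The widest gap came on day 10, with 214 TPM against a non-toxic range of 27.1 to 36.5 TPM. TYMS behaved likewise, with 513 TPM on day 10 under Hydroxyurea and 81.4 to 105 TPM in the non-toxic libraries.

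On days 1 to 6, 34 of the 35 genes rose under Hydroxyurea and none fell, where 29.7% of all genes rose. The median of the 35 was 0.70 and that of all genes was 0.02. TK1 (1.36 ± 0.09, adjusted p = 3.28e-24) and RRM2 (1.31 ± 0.05, adjusted p = 6.06e-36) had the largest differences, in a fit of 5 Hydroxyurea and 79 non-toxic libraries. The other nucleotide supply genes, TYMS (1.14 ± 0.05) and RRM1 (0.84 ± 0.05), rose as well. All 8 licensing and firing genes rose, among them CDC6 (1.18 ± 0.08) and CDT1, and CCNE2 rose by 1.12 ± 0.08. MCM6 (0.06) was the gene not called, with 79.3 TPM on day 1 under Hydroxyurea, against 125 to 138 TPM in the non-toxic libraries of that day, and 82.3 TPM on day 6, against 40.4 to 53.5 TPM; it lay below the controls on the first day and above them on the sixth. On all 5 days 26 of the 35 lay above every non-toxic library, as did 8.13% of all genes. Without any 1 of the 5 libraries, 34 or 35 genes rose.

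On days 8 to 39, 34 genes again rose under Hydroxyurea, where 23.8% of all genes rose, with a median of 0.90, and POLE (0.28) was the one not called. The largest rises were in CDT1 (1.58 ± 0.13, adjusted p = 3.88e-17), RRM2 (1.57 ± 0.13), TK1 (1.54 ± 0.14), CDC6 (1.43 ± 0.15) and TYMS (1.42 ± 0.12). The library medians were 0.32, 0.53, 0.67, 0.85, 1.33, 1.64, 1.77, 1.00, 0.32, 0.25 and 0.40 over the 11 days, so the gap opened to day 10 and then closed. Other genes of the cell cycle moved too. Of 54 other replication genes, 45 rose early and 38 late, led early by ASF1B, a histone chaperone (1.45 ± 0.07). Of 14 mitotic genes, 12 rose early and 14 late. CCNE1, the partner of CDK2 at the G1 to S boundary, rose by 1.32 ± 0.10, while CDKN1A rose by 2.09 ± 0.11, with 60.5 to 112 TPM under Hydroxyurea on days 1 to 6. RRM2B, a ribonucleotide reductase subunit induced by p53, rose by 0.68 ± 0.07. Mesenchymal markers rose in 6 of 6 cases early, with a summed level of 1600 to 3100 TPM, median 1890, in the 5 early libraries, against 481 to 2590 TPM, median 993, in the 79 non-toxic ones. Neural progenitor markers fell in 6 of 7 and neuron markers in 5 of 7 cases. The part of these cell types in the result was not tested.

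**Figure D2:**
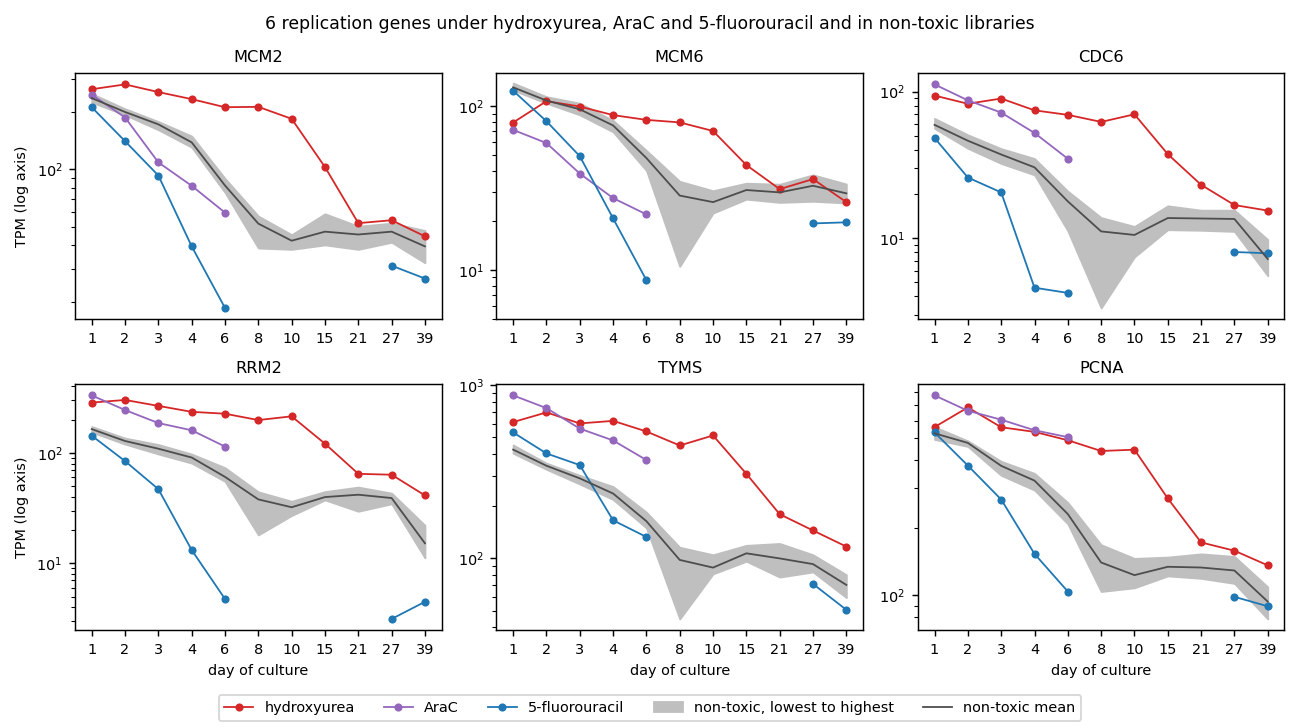
TPM of 6 replication genes by day of culture under Hydroxyurea, AraC and 5-Fluorouracil, 1 point per library, with the non-toxic mean as a line and the lowest to highest non-toxic library as a grey band. The y axis is a log axis. Hydroxyurea stays near its day 1 level to day 10 (RRM2, 214 TPM against a highest control of 36.5 TPM), and 5-Fluorouracil drops below the band by day 4 (RRM2, 13.2 TPM).

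5-Fluorouracil moved the same genes down. This uracil analogue yields a metabolite that blocks the TYMS enzyme and also enters RNA. RRM2 had 143, 84.2, 46.9, 13.2 and 4.76 TPM on days 1, 2, 3, 4 and 6 under 5-Fluorouracil, beside the non-toxic means above. TK1, the salvage enzyme, had 65, 38.2, 23.3, 8.15 and 0.35 TPM, against non-toxic means of 79.3, 65.4, 51, 39 and 23.3 TPM. CDC6 had 48.3, 25.9, 20.5, 4.58 and 4.22 TPM under 5-Fluorouracil, against 59.3, 46.2, 37.2, 30.4 and 17.8 TPM. All 5 libraries were below the non-toxic range for each of these 3 genes. In log2 the gap to the non-toxic mean widened to day 6 for RRM2 (-3.42) and TK1 (-4.15). For CDC6 it widened to day 4 (-2.49) and was -1.83 on day 6. The median over the 35 genes was -0.09, -0.51, -0.73, -1.42 and -1.44 on the 5 days.

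On days 1 to 6, 34 of the 35 genes fell under 5-Fluorouracil, where 16.5% of all genes fell, with a median of -0.88 against 0.07 for all genes. TK1 (-1.68 ± 0.17, adjusted p = 9.76e-14), RRM2 (-1.62 ± 0.15), CDC45 (-1.34 ± 0.14), CDC6 (-1.25 ± 0.11) and CDT1 (-1.20 ± 0.09) fell most. The one gene not called was TYMS (0.00 ± 0.05, adjusted p = 1), the enzyme that the drug is known to block. It had 534, 404, 346, 166 and 133 TPM on days 1 to 6 under 5-Fluorouracil, against non-toxic means of 425, 343, 290, 237 and 164 TPM. It was thus above the highest control (452, 355 and 302 TPM) on days 1, 2 and 3 and below the lowest (219 and 150 TPM) on days 4 and 6. TYMP, which breaks thymidine down, differed by 0.10 ± 0.17 (adjusted p = 0.676). Beside the 35, 43 of 54 other replication genes and 14 of 14 mitotic genes fell, RRM2B rose by 1.63 ± 0.10 and CDKN1A rose by 4.21 ± 0.16. Mesenchymal markers rose in 6 of 6 cases here too, with a summed level of 1670 to 2890 TPM, median 2320, in the 5 libraries. Their part in the result was not tested. With the DMSO libraries as the only controls none of the 34 calls was kept, in a fit with 1 DMSO library a day.

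At days 27 and 39, 24 of the 35 were lower under 5-Fluorouracil, where 22.3% of all genes were, and 2 were higher, where 34.4% of all genes were. RRM2 had 3.14 and 4.49 TPM, against 34.6 to 43.2 and 11.2 to 22.1 TPM in the non-toxic libraries (-2.40 ± 0.21, adjusted p = 2.19e-10). TK1 (-1.92 ± 0.14) and UHRF1 (-1.52 ± 0.14) followed. POLE was higher by 0.99 ± 0.18, with 37.5 and 38.1 TPM, against 23.6 to 36.9 and 9.2 to 14.1 TPM, and the day 39 library carried this, since without it the difference was 0.37 and not called. A high day 39 level of POLE was not particular to 5-Fluorouracil. It was also above the control range under U0126 (44.7 TPM), Benzene (37 TPM) and Hydroxyurea (36.5 TPM), among others. Under Carbamazepine (11.6 TPM) and Thalidomide (12.2 TPM), among others, it was inside that range. PRIM1, the catalytic primase subunit, was higher by 0.47 ± 0.11, and without the day 27 library by 0.39, not called. CDC6, at 8.03 and 7.87 TPM, differed by -0.27 ± 0.16 (adjusted p = 0.148). The difference between the late and the early effect was above 0 in 23 of the 35 genes, where it was in 25.3% of all genes. Mesenchymal markers were lower in 6 of 6 cases on these 2 days.

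AraC, a cytidine analogue that stalls polymerases once it is built into DNA, moved genes of the group both ways, and genes outside it too. MCM6 had 71.5, 59.4, 38.7, 27.4 and 21.8 TPM on days 1 to 6 under AraC, against non-toxic means of 130, 108, 95.5, 76.1 and 48.1 TPM. TYMS had 874, 738, 562, 480 and 370 TPM under AraC, against 425, 343, 290, 237 and 164 TPM. All 5 AraC libraries lay below the control range for MCM6 and above it for TYMS. In all, 20 genes rose, where 40.9% of all genes rose, and 11 fell, where 27.2% of all genes fell. By role, 5 of 6 helicase genes fell, MCM4 being the one that rose (0.48), while all 4 nucleotide supply genes rose. MCM6 (-1.11 ± 0.04, adjusted p = 8.76e-40), MCM7 (-0.75 ± 0.04), UHRF1 (-0.66 ± 0.04), MCM5 (-0.51 ± 0.04) and POLD1 (-0.46 ± 0.07) fell most. TK1 (1.13 ± 0.07), GINS4 (1.13 ± 0.06) and TYMS (1.06 ± 0.03, adjusted p = 1.43e-48) rose most, and CDC6 and RRM2 each rose by 0.89. PCNA rose by 0.72 ± 0.04, with 506 TPM on day 6, against 208 to 259 TPM. Of the polymerase genes, POLA1 fell by 0.18 (SE 0.06; 56.9 TPM on day 1, above the controls, and 14.2 TPM on day 6, below them), and POLE differed by -0.04 ± 0.04 (adjusted p = 0.435). Without the day 4 or the day 6 library the POLA1 call was lost.

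DCK, the kinase that activates AraC, rose by 0.24 ± 0.05, and SAMHD1, which hydrolyses its active form, by 0.66 ± 0.08. RRM2B rose by 2.66 ± 0.09, with 36.7, 76.7, 92.5, 80.6 and 102 TPM, against 12, 11.5, 10.6, 11 and 9.16 TPM in the controls. CDKN1A rose by 5.73 ± 0.15, with 517 TPM on day 1 and 2150 TPM on day 6, against 32.1 and 15 TPM. Of the mitotic genes 13 of 14 fell, PLK1 most (-1.80 ± 0.05). Mesenchymal markers rose in 6 of 6 cases, with a summed level of 3040 to 8790 TPM, median 5120, and neural progenitor markers fell in 6 of 7. Their part in the result was not tested. With day left out of the fit 12 genes rose and 3 fell, and with the other toxic compounds sampled on day 10 as controls 6 fell.

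Busulfan, an alkylating agent that crosslinks DNA, showed a like division, with more genes down. MCM6 had 80.6, 75.3, 47.1, 26.8 and 10.2 TPM and MCM7 had 407, 310, 190, 136 and 60.4 TPM under Busulfan, with non-toxic means for MCM7 of 475, 457, 393, 354 and 259 TPM. TYMS had 761, 621, 528, 348 and 137 TPM, above the control range to day 4 and below it on day 6. In all, 24 genes fell, where 35.1% of all genes fell, and 4 rose, where 29.5% of all genes rose. MCM6 (-1.16 ± 0.07, adjusted p = 2e-24), MCM7 (-1.06 ± 0.08), CCNE2 (-0.87 ± 0.10), UHRF1 (-0.85 ± 0.09) and MCM2 (-0.83 ± 0.09) fell most. TYMS (0.57 ± 0.06), TK1 (0.41 ± 0.08), PCNA (0.33 ± 0.04) and GINS4 (0.30) rose. The median of the 35 was 0.12, -0.02, -0.30, -0.50 and -1.34 over the 5 days. RRM2 fell by 0.22 (SE 0.08), and without the day 6 library its difference was 0.07. With day left out of the fit 13 genes fell, and with DMSO alone as the control none did. CDKN1A rose by 5.34 ± 0.14 and RRM2B by 2.08 ± 0.09, all 14 mitotic genes fell, and mesenchymal markers rose in 6 of 6 cases, with a summed level of 3660 to 11900 TPM, median 6270. Their part in the result was not tested. The comparisons of AraC, Busulfan and Hydroxyurea share their control libraries.

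**Figure D3:**
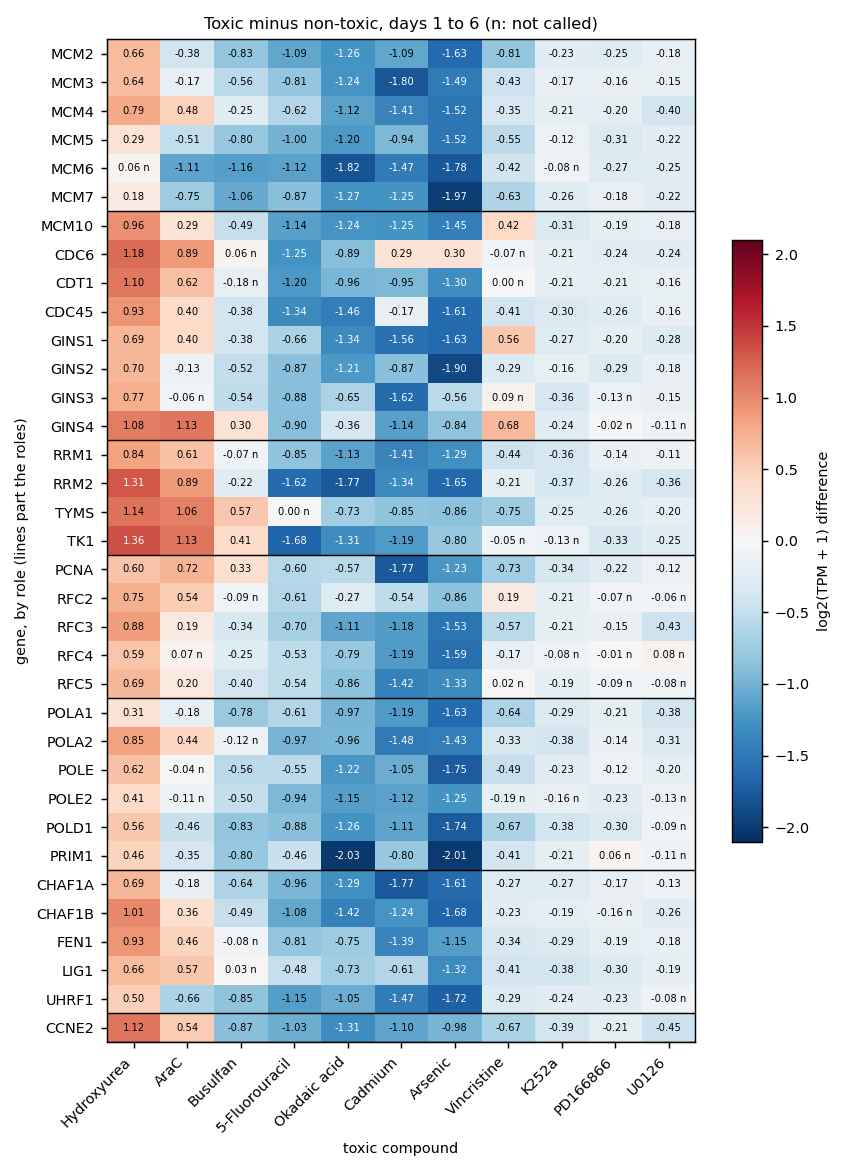
Difference of each of the 35 genes from the non-toxic libraries on days 1 to 6, log2(TPM + 1), as colour, with genes in rows by role and 11 toxic compounds in columns; each cell prints its difference, and the letter n marks one that was not called. The Hydroxyurea column is high throughout except MCM6 (0.06), the 5-Fluorouracil column low throughout except TYMS (0.00), and the AraC and Busulfan columns change sign between MCM6 (-1.11 and -1.16) and TYMS (1.06 and 0.57).

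Differences between compounds were fitted directly for 5 pairs on shared days, each with 5 libraries against 5 and p-values adjusted over all genes. Hydroxyurea against 5-Fluorouracil gave 26 genes higher under Hydroxyurea and none lower, where 10.8% of all genes were higher. The differences of the 35 ran from 0.92 to 3.04, the largest in TK1 (3.04 ± 0.78) and RRM2 (2.93 ± 0.66), and 34 of the 95% intervals lay above 0. Leaving out day 2, 3 or 4 left no call, and leaving out day 6 left 1. AraC against 5-Fluorouracil gave 27 genes higher under AraC, where 16.7% of all genes were, led by TK1 (2.81 ± 0.67), RRM2 (2.50 ± 0.50) and CDC6 (2.14 ± 0.32). MCM6 differed by 0.01 in that pair, with an interval from -0.74 to 0.77. Without day 2, 3 or 4 the count was 16, 7 and 10, and without day in the fit it was 6.

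Hydroxyurea against AraC gave 10 genes higher under Hydroxyurea, where 8.24% of all genes were. MCM6 had 79.3, 107, 99.3, 88 and 82.3 TPM under Hydroxyurea and 71.5, 59.4, 38.7, 27.4 and 21.8 TPM under AraC, a difference of 1.17 ± 0.26 (adjusted p = 0.0326). UHRF1 (1.16 ± 0.20) and MCM2 (1.05 ± 0.27) came next. TYMS differed by 0.09, with an interval from -0.31 to 0.48, and PCNA by -0.12, from -0.34 to 0.10. The count was 21 without day 1 and 0 without day 2, 3, 4 or 6, it was 2 with day left out, and it was 30 with the non-toxic libraries in the fit to share the estimate of spread.

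Okadaic acid, an inhibitor of the phosphatases PP2A and PP1, lowered all 35 genes, where 39.8% of all genes fell. PRIM1 had 28, 24, 6.41, 2.4 and 3.72 TPM under Okadaic acid, against non-toxic means of 50.7, 44.2, 40.8, 34.8 and 27.4 TPM (-2.03 ± 0.14, adjusted p = 1.53e-23). MCM6 (-1.82 ± 0.11) and RRM2 (-1.77 ± 0.17) followed, and RFC2 fell least. The median over the 35 was -0.25, -0.37, -1.18, -1.83 and -1.76 on the 5 days, so the fall was mostly on days 3 to 6. PCNA, at 420, 338, 245, 168 and 164 TPM, fell by 0.57 (SE 0.04). All 14 mitotic genes and 43 of 54 other replication genes fell, CDKN1A rose by 5.00 ± 0.19, and neuron markers fell in 7 of 7 cases, with a summed level of 1330 to 2140 TPM, against 2420 to 6280 TPM. Their part in the result was not tested. With DMSO alone as the control 16 genes fell.

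Under Arsenic the difference was widest on the first day. MCM7 had 113, 115, 96.5, 87.7 and 73.6 TPM on days 1 to 6, against the non-toxic means given above, and the median over the 35 was -2.32, -1.47, -1.26, -1.25 and -0.98. In all, 34 genes fell, where 46.7% of all genes fell, led by PRIM1 (-2.01 ± 0.09), MCM7 (-1.97 ± 0.02, adjusted p = 7.12e-83), GINS2 (-1.90 ± 0.07), MCM6 (-1.78 ± 0.08) and POLE (-1.75 ± 0.04). On every day 32 of the 35 lay below all non-toxic libraries, as did 26.8% of all genes. CDC6 was the exception, rising by 0.30 ± 0.06, where 34.8% of all genes rose; it had 93.6 TPM on day 1 under Arsenic, against 56.1 to 65.6 TPM, and 18.4 TPM on day 6, inside the control range of 11.2 to 20.9 TPM. The helicase gene MCM2, by contrast, had 38.7 TPM on day 1, against 226 to 251 TPM. CDKN1A rose by 5.18 ± 0.11, RRM2B by 1.63 ± 0.08, and all 14 mitotic genes fell. Mesenchymal markers rose in 6 of 6 cases, with a summed level of 2250 to 19700 TPM, median 10300, and their part in the result was not tested.

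Cadmium also lowered 34 genes and raised CDC6, with a difference that shrank from day to day. PCNA had 59.5, 101, 112, 132 and 168 TPM under Cadmium, against 494 to 562 TPM on day 1 and 208 to 259 TPM on day 6 in the non-toxic libraries. The median over the 35 was -1.99, -1.78, -1.37, -0.88 and -0.12, while the non-toxic level of PCNA itself declined. MCM3 (-1.80 ± 0.10), CHAF1A (-1.77 ± 0.09) and PCNA (-1.77 ± 0.11, adjusted p = 3.58e-27) fell most. Of all genes 59.4% fell and 24.6% rose, and their median was -0.40. CDC6 had 63.8, 40.9, 36.5, 30.3 and 54.1 TPM under Cadmium, against 59.3, 46.2, 37.2, 30.4 and 17.8 TPM (0.29 ± 0.09). Its rise was that of the day 6 library, without which the difference was -0.02. Mesenchymal markers fell in 6 of 6 cases, with a summed level of 364 to 1340 TPM, median 444, and neural progenitor markers in 7 of 7. Their part in the result was not tested.

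Vincristine, which blocks microtubule assembly, gave 25 lower genes, where 37.9% of all genes fell, and 4 higher ones, where 33.1% rose. The day 4 library carried most of this. MCM2 had 229, 179, 115, 12.5 and 91.6 TPM, against non-toxic means of 238, 201, 173, 139 and 82.3 TPM, and GINS4 had 34.8, 21.8, 21.2, 70.3 and 27.1 TPM, against 30.4, 23.6, 21, 15.9 and 11.3 TPM. On day 4 the first was far below and the second far above the controls. GINS4 (0.68 ± 0.12), GINS1 (0.56 ± 0.10) and MCM10 (0.42 ± 0.08) rose most. Without day 4, 8 genes fell, and the differences of TYMS and RRM2 were 0.32 and 0.08, where they had been -0.75 ± 0.26 and -0.21 ± 0.09. With day left out of the fit 9 fell, with the other toxic compounds as controls 16 did, and with DMSO alone none did. The median on day 6 was 0.37.

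**Figure D4:**
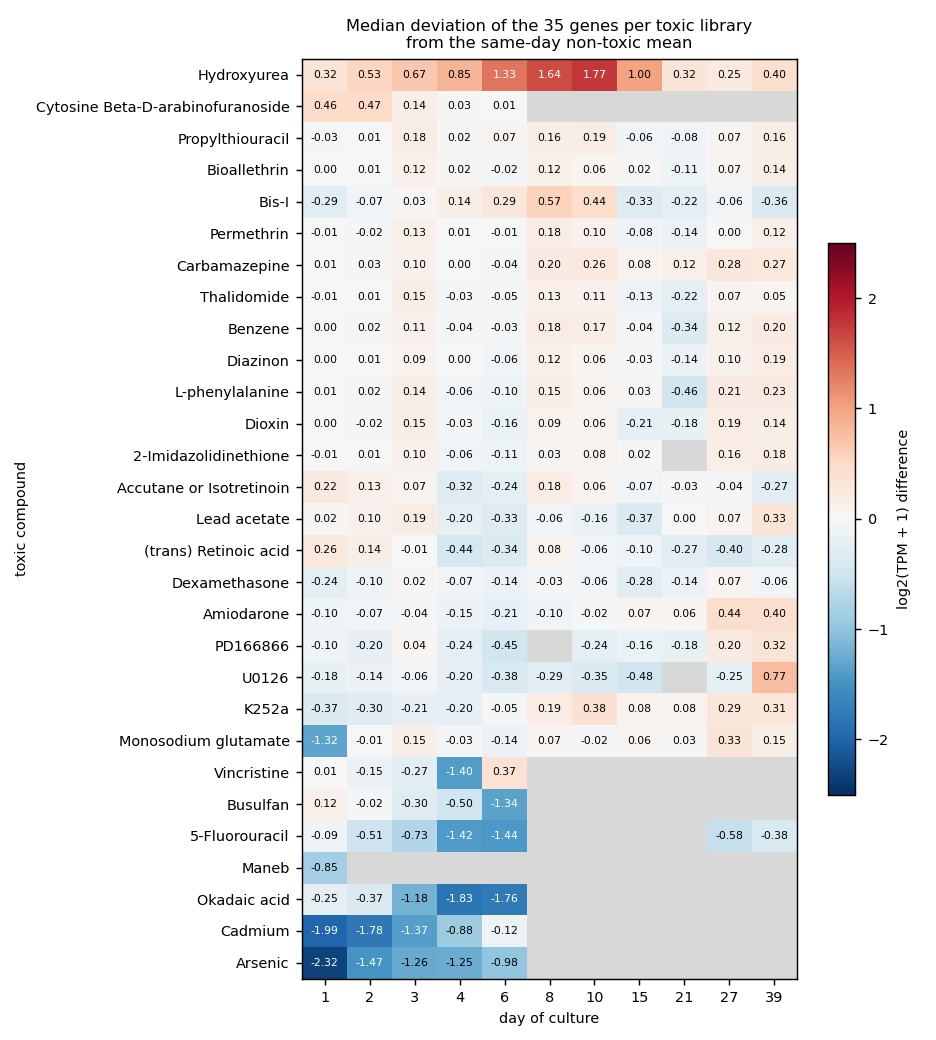
Median deviation of the 35 genes from that day's mean non-toxic level in each toxic library, log2(TPM + 1), as colour, with compounds in rows and days of culture in columns; grey cells have no library. Hydroxyurea is above 0.5 on every day from 2 to 15 (1.77 on day 10), and Arsenic (-2.32), Cadmium (-1.99) and Okadaic acid (-1.83 on day 4) hold the lowest values.

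K252a, a kinase inhibitor that acts on Trk receptors among others, had small effects of opposite direction early and late in the course. On days 1 to 6, 31 genes were lower, where 19.5% of all genes were, with a median of -0.24. CCNE2 (-0.39 ± 0.08), POLA2, POLD1 and LIG1 (each -0.38) and RRM2 (-0.37 ± 0.04) were the lowest. RRM2 had 119, 92.8, 87, 68.4 and 51.2 TPM under K252a, below the control range on every one of these days. On days 8 to 39, 19 genes were higher and none lower, where 17.5% of all genes were higher. MCM5 had 62.3, 64.7, 59.6, 58.3, 50.9 and 34.6 TPM, above the highest non-toxic library on each of the 6 days (0.63 ± 0.07, adjusted p = 5.84e-12), and CDT1 (0.61 ± 0.10) and MCM6 (0.50 ± 0.09) followed. The late minus early difference was tested itself and was above 0 in 30 of the 35 genes, where it was in 12.6% of all genes. Mitotic genes moved alongside, 13 of 14 lower early and 13 of 14 higher late. Mesenchymal markers rose in 5 of 6 cases early, with a summed level of 1470 to 3330 TPM, and their part in the result was not tested. With day left out of the fit 0 genes were called lower early and 9 higher late. With the other toxic compounds as controls the counts were 1 and 3, and with DMSO alone 14 were lower early.

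U0126, an inhibitor of the kinase MEK, and PD166866, an inhibitor of the FGF receptor kinase, lowered 27 and 28 genes on days 1 to 6, where 25.9% and 9.12% of all genes fell. Under U0126, RRM2 had 107, 109, 103, 71.4 and 40.4 TPM, and under PD166866 it had 155, 101, 106, 74.1 and 41.3 TPM. CCNE2 (-0.45 ± 0.08), RFC3 (-0.43 ± 0.05) and MCM4 (-0.40 ± 0.03) were lowest under U0126, and TK1 (-0.33 ± 0.07), MCM5 (-0.31 ± 0.04) and LIG1 (-0.30 ± 0.03) under PD166866. Fitted against each other, these compounds gave no call in the 35 or over all genes (0% of all genes, and 4 of the 35 at an unadjusted p under 0.05). The differences ran from -0.27 to 0.22, the 95% bounds from -0.64 to 0.40, and 31 of 35 intervals held 0. Late, TYMS was the one gene lower under U0126 (-0.63 ± 0.11), where 12.3% of all genes moved in either direction, and PD166866 had 4 higher and 4 lower genes, where 35.5% of all genes moved. These late counts cover days of opposite direction. Under U0126 the median over the 35 was -0.29, -0.35, -0.48, -0.25 and 0.77 on days 8, 10, 15, 27 and 39. On day 15, 34 genes lay below every control, as did 43.6% of all genes. On day 39, 32 lay above every control, as did 35.1% of all genes. Without the day 39 library 19 genes were lower under U0126, with a median of -0.35, and without day 8 there were 2. Under PD166866 the medians were -0.24, -0.16, -0.18, 0.20 and 0.32 on days 10, 15, 21, 27 and 39; the 4 lower genes were 10 without day 39, 7 without day 27 and 1 without day 21. For PD166866 the late minus early difference was above 0 in 13 genes, where it was in 12.4% of all genes. All early calls of these compounds were lost with day left out of the fit, with the other toxic compounds as controls or with DMSO alone.

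The retinoids (trans) Retinoic acid and Accutane or Isotretinoin, the 13-cis isomer of the other, moved most of the group up on day 1 and down on day 4. On day 1, 30 of the 35 genes lay above every control under (trans) Retinoic acid and 28 under Accutane or Isotretinoin. Of all genes, 16.7% and 13.3% did. On day 4, 32 and 30 lay below every control, as did 24.3% and 22.8% of all genes. The median over the 35 was 0.26, 0.14, -0.01, -0.44 and -0.34 on these days under (trans) Retinoic acid and 0.22, 0.13, 0.07, -0.32 and -0.24 under Accutane or Isotretinoin. Over days 1 to 6 together, 11 genes fell under (trans) Retinoic acid and 5 under Accutane or Isotretinoin, where 21.1% of all genes fell in each. None of these calls was kept with day left out of the fit, with DMSO alone or with the other toxic compounds as controls. Leaving out day 1 or 2 gave 20 or 17 genes under (trans) Retinoic acid, and leaving out day 4 or 6 gave 3 or 5. For Accutane or Isotretinoin the same omissions gave 13 or 9 and 1 or 1. At days 8 to 39, 15 fell under (trans) Retinoic acid, where 24% of all genes fell, and 2 rose, where 20.7% rose. POLE had 21.4, 20.6, 19.5, 27.5, 24.9 and 9.58 TPM, against non-toxic means of 32.7, 45.8, 44.2, 56.8, 29.2 and 11.9 TPM (-0.71 ± 0.12), below the control range on days 10, 15 and 21. Without days 15 and 21 the POLE difference was -0.53. GINS3 (-0.66 ± 0.08) and UHRF1 (-0.56 ± 0.11) followed, with FEN1 (0.18 ± 0.06) and MCM7 (0.12 ± 0.05, adjusted p = 0.049) the 2 that rose. FEN1 was not called without day 21 or 39, and MCM7 not without day 10, 15, 21 or 39. Accutane or Isotretinoin had 6 lower, where 17.7% of all genes fell, and 2 higher, where 20% rose. The late minus early difference was below 0 in 11 genes under (trans) Retinoic acid, where it was in 18.8% of all genes. At these doses, which are given in different units, the pair gave no call over all genes (0%, and 5 of the 35 at an unadjusted p under 0.05), with differences from -0.18 to 0.14 and bounds from -0.35 to 0.42, of which 29 intervals held 0.

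Among the other compounds, fewer genes were called, the differences were smaller or the days went opposite ways. Monosodium glutamate lowered 28 genes on days 1 to 6, where 51.3% of all genes fell, but without its day 1 library (42.8 TPM of MCM2, against 226 to 251 TPM) none was called. Its late minus early difference was above 0 in 23 genes, where it was in 38.7% of all, and without that library in 0 (4 at an unadjusted p under 0.05), where it was in 0.0797% of all. Amiodarone lowered 17 early (largest in CDT1, -0.23 ± 0.06), where 9.96% of all genes fell, and raised 12 late (TK1, 0.49), where 6.05% rose, with the late minus early difference above 0 in 19 genes, where it was in 5.85% of all. Dexamethasone lowered 15 early (RFC3, -0.29 ± 0.04), where 12.8% fell. The early calls of Amiodarone and Dexamethasone were all lost with day left out of the fit, with DMSO alone or with the other toxic compounds as controls. Lead acetate lowered 12 early, where 20.8% fell, with MCM7 the lowest (-0.59 ± 0.03), and raised TYMS (0.32 ± 0.04), where 17% rose; late it lowered 5, where 17.5% fell, and raised TYMS again (0.58 ± 0.09), where 16.1% rose. Bis-I raised 6 early (MCM3, 0.23 ± 0.04), where 8.85% rose, and lowered 3 (RRM2, -0.33 ± 0.04), where 25.9% fell. Its days turned: the median over the 35 was -0.29, -0.07, 0.03, 0.14 and 0.29 on days 1, 2, 3, 4 and 6. On day 1, 31 genes lay below every control, as did 27.3% of all genes. On day 6, 25 lay above, as did 13.8% of all genes. On days 8, 10, 15, 21, 27 and 39 the median under Bis-I was 0.57, 0.44, -0.33, -0.22, -0.06 and -0.36. On day 8, 28 genes lay above every control, as did 21.3% of all genes. On day 15 and again on day 39, 24 lay below, as did 43.4% and 32.7% of all genes. The 6 early rises under Bis-I were lost with day left out, with DMSO alone or with the other toxic compounds as controls. Carbamazepine raised 9 late (RRM2, 0.40), where 1.47% rose. Neither the late calls of Carbamazepine nor those of Amiodarone were kept with day left out or with the other toxic compounds as controls. Without days 15 and 21 together, 2 were left for Carbamazepine and 0 for Amiodarone. The early falls under Lead acetate came to 1 with day left out, with DMSO alone or with the other toxic compounds as controls. Leaving out 1 library changed several of these counts by more than 1.5 times. The 12 late calls of Amiodarone were 20 without day 8, 4 without day 15, 2 without day 21, 6 without day 27 and 5 without day 39. The 9 of Carbamazepine were 19, 0, 4, 3 and 4 without day 8, 10, 21, 27 and 39. Dexamethasone had 8 without day 1, Lead acetate 6 without day 4 or 6, and Bis-I 13 higher without day 1, 3 without day 4 or 6, and 9 lower without day 6.

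The remaining counts of called genes are given in either direction. On days 1 to 6 there were 3 under Propylthiouracil, where 2.22% of all genes were called, 3 under Diazinon (7.81%), 1 under Benzene (4.4%) and 1 under Bioallethrin (5.41%). There were none under 2-Imidazolidinethione (5.8%, 3 of the 35 at an unadjusted p under 0.05), Carbamazepine (6.51%, 5), Dioxin (2.1%, 6), L-phenylalanine (0.895%, 1), Permethrin (6.37%, 3) and Thalidomide (7.42%, 4). On days 8 to 39 there were 6 under Dioxin (20.3%), 6 under Bis-I (35.7%), whose days went opposite ways as given above and whose 3 lower genes were 14 without day 8, 4 under Benzene (10.8%) and 2 under Dexamethasone (9.73%). In the late window none was called under Thalidomide (8.76%, 8 unadjusted), Diazinon (0.895%, 6), Permethrin (0.533%, 1), Propylthiouracil (0.153%, 4), Bioallethrin (0.104%, 1), Monosodium glutamate (0.0306%, 4), 2-Imidazolidinethione (0.0123%, 6) and L-phenylalanine (0.0123%, 3). For these compounds the differences of the 35 lay between -0.54 and 0.48 in either window, Monosodium glutamate early aside.

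**Figure D5:**
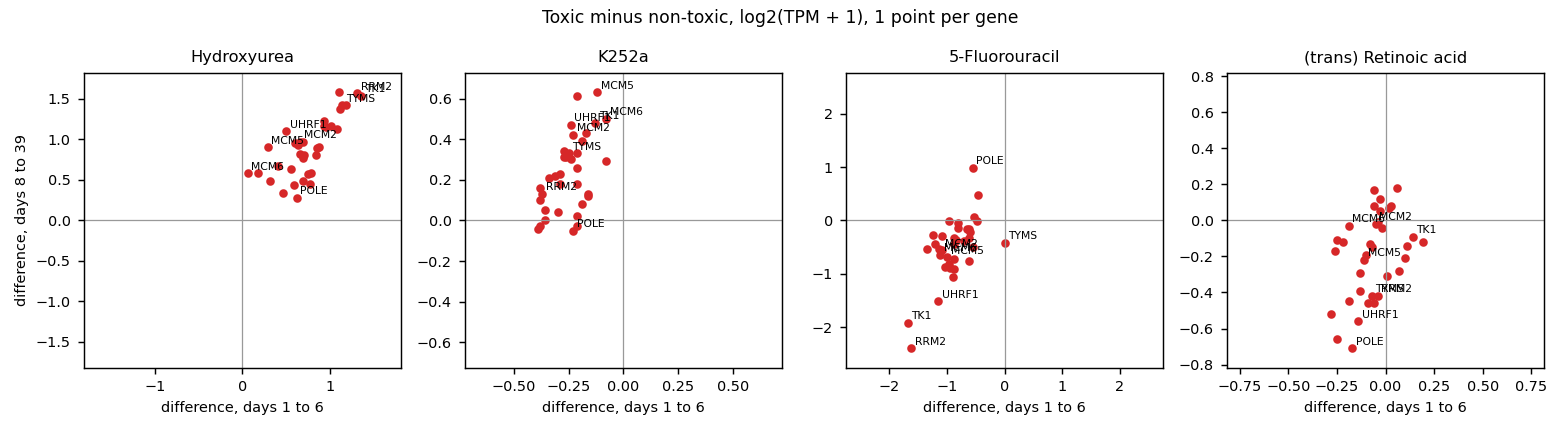
Difference from the non-toxic libraries, log2(TPM + 1), on days 1 to 6 (x axis) and days 8 to 39 (y axis), 1 point per gene, for Hydroxyurea, K252a, 5-Fluorouracil and (trans) Retinoic acid. Hydroxyurea has its points above 0 on both axes (medians 0.70 and 0.90), 5-Fluorouracil has most below 0 on both (medians -0.88 and -0.44), and K252a has negative x and mostly positive y (medians -0.24 and 0.22).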

How the data were processed

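Gene-level TPM values were deposited by the authors for 414 libraries and 19084 genes. Per the submitters' processing notes, CASAVA 1.8.2, Bowtie 0.12.8, RSEM 1.2.1 and hg19 were used. TPM keeps no depth, so no counting error can be given. From the deposited TPM, log2(TPM + 1) was fitted with limma 3.58.1 (trend) in R 4.3.3, with a term for each day. The fits covered 16318 genes of at least 1 TPM in at least 5 libraries, and p-values were Benjamini-Hochberg adjusted over all genes. Compounds were random blocks (correlation 0.0212) in the fits of toxic against non-toxic libraries. The fits between days of the non-toxic libraries and between toxic compounds had no such block. Toxic libraries were compared with the same days' non-toxic ones, early (days 1 to 6) and late (days 8 to 39). Transcript lengths came from GENCODE 29. The fits were tested on simulated data. The members and gene lists were chosen with earlier results of these data known. Named genes are, per comparison, the 5 largest called falls and 3 largest called rises, the target genes of each inhibitor, the 3 largest differences each way of other lists, and MCM2, CDC6, RRM2, TYMS, PCNA and CCNE2 throughout. Alternatives were other pseudocounts, filters, centring, controls, the day block and leaving out libraries; the other toxic compounds as controls, the late fits without libraries of low length slope, the late minus early term, and leaving out libraries of U0126, PD166866 and Bis-I and of Monosodium glutamate from that term were added after the data were seen. Days pair a toxic library with controls of the same day.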

Additional observations from a re-analysis of the deposited data

Results flagged for a closer look

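Within each compound and window, 51 groups of 4 to 10 libraries were examined for a library far from the others in the median deviation of the 35 genes, and 6 had one; chance flags about 1 in 20 groups. These were Monosodium glutamate on day 1 (-1.32), U0126 on day 39 (0.77), L-phenylalanine on day 21 (-0.46), Bioallethrin on day 3 (0.12), Permethrin on day 3 (0.13) and, among the non-toxic libraries of day 8, Ibuprofen (-0.68). The day 3 values of Bioallethrin and Permethrin were not particular to them. Monosodium glutamate, Dioxin and Thalidomide each had 0.15 on that day, and 18 of the 28 toxic libraries lay above 0 and 10 below.

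The late minus early difference, tested as an interaction, set compounds apart as well. It was above 0 in 30 of the 35 genes for K252a (12.6% of all genes), 23 for 5-Fluorouracil (25.3%), 19 for Amiodarone (5.85%) and 13 for PD166866 (12.4%), and below 0 in 11 for (trans) Retinoic acid (18.8%). For Monosodium glutamate it was above 0 in 23 (38.7%), and in 0 without the day 1 library named above.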

How the results depend on the processing

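With the day block left out (no replicate block), counts of genes higher were 0 for late Amiodarone, 0 for Bis-I, 0 for late Carbamazepine, 6 for AraC over 5-Fluorouracil, 12 for AraC, 2 for Hydroxyurea over AraC and 9 for late K252a. Counts of genes lower were 0 and 7 for early and late (trans) Retinoic acid, 0 and 2 for Accutane or Isotretinoin, 0 for early Amiodarone, 13 for Busulfan, 3 for AraC, 0 for Dexamethasone, 0 for early K252a, 1 and 2 for early and late Lead acetate, 1 for Monosodium glutamate, 0 for PD166866, 0 for U0126 and 9 for Vincristine. With DMSO alone as the control, 0 were higher for Bis-I, and the counts lower were 4 for AraC, 14 for K252a, 1 for Lead acetate, 16 for Okadaic acid and 0 for early (trans) Retinoic acid, 5-Fluorouracil, Accutane or Isotretinoin, Amiodarone, Busulfan, Dexamethasone, Monosodium glutamate, PD166866, U0126 and Vincristine. With other toxic compounds as controls, 0 were higher for late Amiodarone, Bis-I and late Carbamazepine and 3 for late K252a, and the counts lower were 0 for early (trans) Retinoic acid, Accutane or Isotretinoin, Amiodarone, Dexamethasone, PD166866 and U0126, 6 for AraC, 1 for early K252a, 1 and 3 for Lead acetate, 10 for Monosodium glutamate and 16 for Vincristine; MCM7 under late (trans) Retinoic acid was 0. With libraries centred, 24 were higher for late Amiodarone, 14 for Bis-I, 14 for late Carbamazepine and 7 from day 10 to day 21, and 3 and 5 lower for Accutane or Isotretinoin and Monosodium glutamate; MCM2 and PCNA from day 10 to day 21 were then -0.07 and -0.06. With non-toxic libraries in the pair fit, 30 were higher under Hydroxyurea than AraC. The cause was not tested.

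Leaving out 1 library at a time, days 15 and 21 together or the libraries of low length slope, counts higher ran from 0 to 20 (late Amiodarone), 3 to 13 (Bis-I), 0 to 19 (late Carbamazepine), 18 to 21 (AraC), 15 to 23 (late K252a), 34 to 35 and 30 to 35 (early and late Hydroxyurea), 7 to 26 (AraC over 5-Fluorouracil), 0 to 34 (Hydroxyurea over 5-Fluorouracil) and 0 to 21 (Hydroxyurea over AraC). Counts lower ran from 3 to 20 and 12 to 20 ((trans) Retinoic acid), 1 to 13 and 4 to 11 (Accutane or Isotretinoin), 12 to 20 (Amiodarone), 34 to 34 and 19 to 24 (5-Fluorouracil), 20 to 28 (Busulfan), 9 to 14 (AraC), 8 to 17 (Dexamethasone), 26 to 33 (K252a), 6 to 15 and 2 to 7 (Lead acetate), 0 to 29 (Monosodium glutamate), 20 to 30 (PD166866), 22 to 28 (U0126) and 8 to 29 (Vincristine). Differences ran from -0.38 to 0.07 for RRM2 under Busulfan and from -0.02 to 0.41 for CDC6 under Cadmium, turning without day 6, and from -1.24 to 0.32 for TYMS and -0.44 to 0.08 for RRM2 under Vincristine, turning without day 4. A pseudocount of 0.1 TPM weakened 6 of 181 results and reversed 0. TPM gives no depth, so levels near 0 have no stated precision.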
